A study of Homo sapiens with 4 samples.

Results

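HINT1, HINT2 and HINT3 encode the histidine triad nucleotide-binding proteins and are 3 of the 19775 genes that the platform annotation ties to a probe set of their own. Of the 54675 probe sets on the array, 9 carry one of these symbols alone. HINT1 has 5 of them, HINT2 has 1 and HINT3 has 3. The family was selected on the measured change of HINT3. Each gene was represented by its brightest probe set (highest mean over the arrays). That of HINT3 rose more than that of any other gene in the comparison below. The selection also used the disagreement of the other HINT3 probe sets: 226533_at rose less (log2 change 1.73) and 226537_at fell (-0.58). The changes of the 9 probe sets therefore come from the contrast that chose them and are given as a description, without a test.

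The samples came from a stable FlpIn T-Rex HEK293 line, human embryonic kidney cells that carry a transgene under doxycycline control. The transgene encoded FlagHA FMRP, the fragile X RNA-binding protein with an epitope tag, and its expression had been induced in all samples with 1 µg/ml doxycycline for 16 h. Total RNA of the clarified lysate formed the lysate group (2 arrays), and RNA recovered from such lysate with anti-FLAG M2 antibody on magnetic beads and washed at 300 mM KCl formed the immunoprecipitate (IP) group (2 arrays). Each sample had its own Affymetrix U133 Plus 2.0 array, a whole-genome human expression array. The tagged protein came from the transgene, no mock IP is among these samples, and the labels do not say whether the line was 1 clone or whether the replicates came from separate cultures, so the spread between arrays may be technical. The arrays number 2 per group, which limits the precision. The contrast sets RNA recovered by the IP against bulk lysate RNA. It measures neither the number of cells that hold a transcript nor its amount per cell.

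HINT proteins are small enzymes of the histidine triad (HIT) superfamily, named after a histidine motif in the active site. They hydrolyse nucleoside phosphoramidates, compounds in which a nucleotide is joined to an amine, and adenylates of amino acids. HINT1 is the abundant cytosolic and nuclear member, has been tied to transcription factors and to receptor signalling, and is mutated in a recessive axonal neuropathy with neuromyotonia. HINT2 is mitochondrial. HINT3 is more divergent from the other members. In an IP of an RNA-binding protein, a transcript with a higher signal than in the lysate is over-represented among the recovered RNAs relative to the other transcripts.

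The deposited values are log2 signals whose array medians lay between 4.67 and 4.71, so a change of 1 is a doubling. All 9 HINT probe sets passed the filter of a mean of at least 4.70 over the 4 arrays, as did 23516 of the 41091 probe sets with a single symbol. Of the 9, 1555960_at of HINT1 passed only through its lysate values (mean 6.45), as its IP mean was 3.31. Over the probe sets kept, which are not replicates, Pearson's r was 0.992 for the lysate pair, 0.99 for the IP pair and 0.866 to 0.897 for pairs from different groups. Of the markers of the HEK293 line, VIM, KRT8, KRT18 and NEFL had lysate means of 9.75 to 12.82, while NEFM (3.73) and NES (4.06) lay below the filter. Of 5 measured markers of blood, endothelial and liver cells, PTPRC, CD3E and ALB lay below the filter, HBB and PECAM1 had lysate means of 5.56 and 5.14, and PECAM1 was called higher in the IP (0.53); their part in the values below was not tested.

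The HINT3 probe sets parted in direction. Probe set 228697_at read 5.96 and 6.22 on lysate arrays 1 and 2 and 9.32 and 9.05 on IP arrays 1 and 2. Both IP values lay at least 2.83 above both lysate values, and the mean went from 6.09 ± 0.19 to 9.18 ± 0.19 (SD, n = 2 each), a change of 3.09 with a moderated standard error of 0.15, or 8.54-fold. Probe set 226533_at read 5.02 and 4.99 in the lysates and 6.88 and 6.60 in the IPs. It was also higher on both IP arrays, by 1.73 ± 0.14 (SE) or 3.33-fold, a smaller rise than that of 228697_at. Probe set 226537_at went the other way, with 5.94 and 5.66 in the lysates and 5.37 and 5.08 in the IPs. Its groups were separated by 0.30 only, and the mean changed by -0.58 ± 0.16 (SE), from 5.80 ± 0.20 to 5.22 ± 0.20 (SD, n = 2 each). These signals, and the lysate mean of 226533_at (5.01), lay near the lysate means of HBB (5.56) and PECAM1 (5.14). No floor of the signal is known there, and whether 226537_at detects its transcript was not tested. The lysate mean of 228697_at (6.09) was not far above that of 226537_at (5.80), so the same limit holds for the folds of both rises.

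Differences between HINT3 probe sets on the same array are not altered by adding a constant to all log2 values of that array. A normalization that depends on the signal level can alter them, and how the deposited values were normalized is not given. With quantile normalization the changes of 228697_at and 226537_at were 3.08 and -0.56. The value of 228697_at minus that of 226537_at was 0.01 and 0.56 in the lysates and 3.95 and 3.97 in the IPs. For 226533_at minus 226537_at it was -0.92 and -0.67 in the lysates and 1.51 and 1.52 in the IPs. The IP arrays thus gave nearly the same offsets, and the lysate arrays were farther apart from each other. Against the lysate mean, IP array 1 gave changes of 3.23, 1.87 and -0.44 for 228697_at, 226533_at and 226537_at, and IP array 2 gave 2.96, 1.60 and -0.72, the same order on both. All 3 names end in _at alone, the class of probe sets designed to be specific to 1 transcript or to transcripts of 1 gene. The platform annotation links 228697_at and 226533_at to expressed sequence tag entries and gives no entry for 226537_at. Which part or isoform of the HINT3 transcript each probe set reads was not analysed here.

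**Figure D1:**
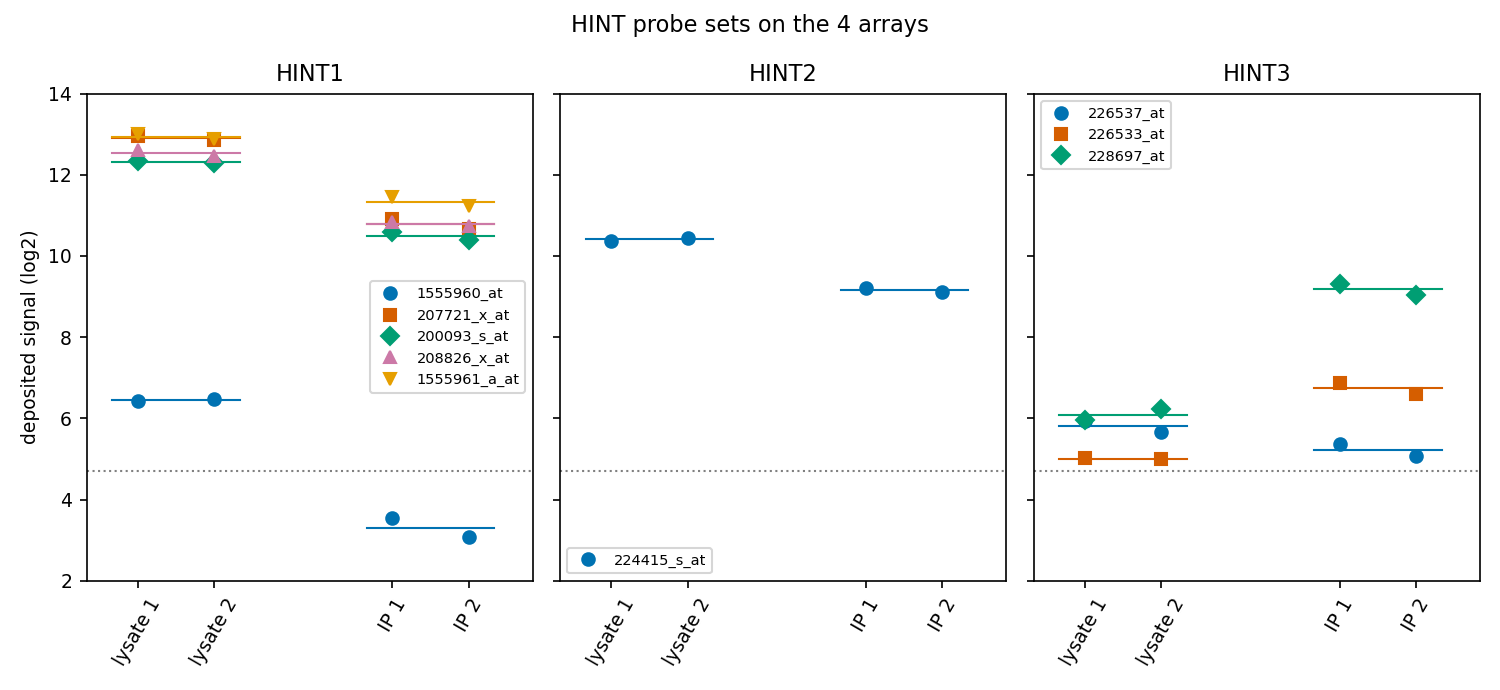
Deposited log2 signal (y axis) of each HINT probe set on lysate arrays 1 and 2 and IP arrays 1 and 2 (x axis), in a panel per gene; symbols are single arrays, the short horizontal lines are group means, and the dotted line is the filter at 4.70. All 5 HINT1 probe sets and the HINT2 probe set are lower on both IP arrays, while 228697_at and 226533_at of HINT3 are higher and 226537_at is slightly lower; on lysate array 1 the symbols of 228697_at (5.96) and 226537_at (5.94) nearly coincide.

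HINT1 was lower in the IP with each of its 5 probe sets. Probe set 1555961_a_at, the one with the highest mean, read 13.01 and 12.88 in the lysates and 11.44 and 11.23 in the IPs, a change of -1.61 ± 0.13 (SE), so that the lysate signal was 3.05-fold higher. Probe set 208826_x_at read 12.61 and 12.46 against 10.84 and 10.74, a change of -1.74, and 200093_s_at read 12.33 and 12.29 against 10.58 and 10.38, a change of -1.83. The SD between replicates was 0.03 to 0.15 for these 3 probe sets (n = 2 each). Probe set 207721_x_at read 12.95 and 12.85 against 10.90 and 10.67, a change of -2.11, or 4.33-fold.

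The fifth HINT1 probe set gave the largest change of the gene. Probe set 1555960_at read 6.42 and 6.48 in the lysates and 3.55 and 3.07 in the IPs, a change of -3.14 ± 0.17 (SE). Its IP values lie below the array medians, where no floor of the signal is known, so no fold is given. The changes of the other 4 HINT1 probe sets, which all have lysate means over 10, spanned 0.51, and those of all 5 spanned 1.53. Suffixes of the HINT1 names differ: _a_at marks probe sets shared by transcripts of 1 gene, _s_at those that can read transcripts of several genes, and _x_at those with probes that can cross-hybridize. The GRCh38.p14 gene table lists 2 HINT1 pseudogenes, HINT1P1 and HINT1P2, both on chromosome 7, and 1 of HINT2, HINT2P1, on chromosome 3; whether these probe sets also read them was not analysed here. Names of 3 of the 5 HINT1 probe sets end in _s_at or _x_at. The _at and _a_at probe sets were lower as well, but the _at one is 1555960_at, with its low IP values. Whether cross-hybridization took part in these changes was not tested.

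HINT2, the mitochondrial member, was lower in the IP by its only probe set, 224415_s_at. It read 10.36 and 10.45 in the lysates and 9.22 and 9.12 in the IPs, with means of 10.41 ± 0.07 and 9.17 ± 0.07 (SD, n = 2 each). The groups were separated by 1.14, and the change of -1.24 ± 0.12 (SE) made the lysate signal 2.36-fold higher. No second probe set checks this value.

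Set against the whole array, the HINT probe sets lay on both flanks of the distribution. The median change of all 23516 probe sets kept was 0.07, with quartiles of -0.49 and 0.58. In 7 of the 9 HINT probe sets both IP arrays were below both lysate arrays, and in 2 both were above; the same held for 37.3% and 44% of all probe sets kept, so separated groups were common on these arrays. By limma at an adjusted p of at most 0.05, 33.2% of all probe sets kept were called higher in the IP and 28.3% lower. A change of at least 2-fold downwards was seen for 6 HINT probe sets and for 12.8% of all, and upwards for 2 HINT probe sets and 12.2% of all. These counts come from the contrast that chose the family, and probe sets of 1 gene read the same RNA, so nothing is read from them.

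The rank of HINT3 depended on how a gene is represented. With the probe set of the highest mean for each of 13157 genes, HINT3 was first at 3.09 and the zinc finger gene ZNF91 second at 3.05, its arrays reading 5.86 and 5.24 in the lysates and 8.45 and 8.75 in the IPs. Among all probe sets kept, 228697_at was in place 2, behind 1556499_s_at of the collagen gene COL1A1 (3.12), which rose from a lysate mean of 4.28, below the array medians. Probe set 226533_at was in place 449 by rise, and 226537_at in place 5267 by fall. The mean of the 3 HINT3 changes was 1.42. By fall, the 4 HINT1 probe sets other than 1555960_at were in places 398 to 1089 and that of HINT2 in place 2100.

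**Figure D2:**
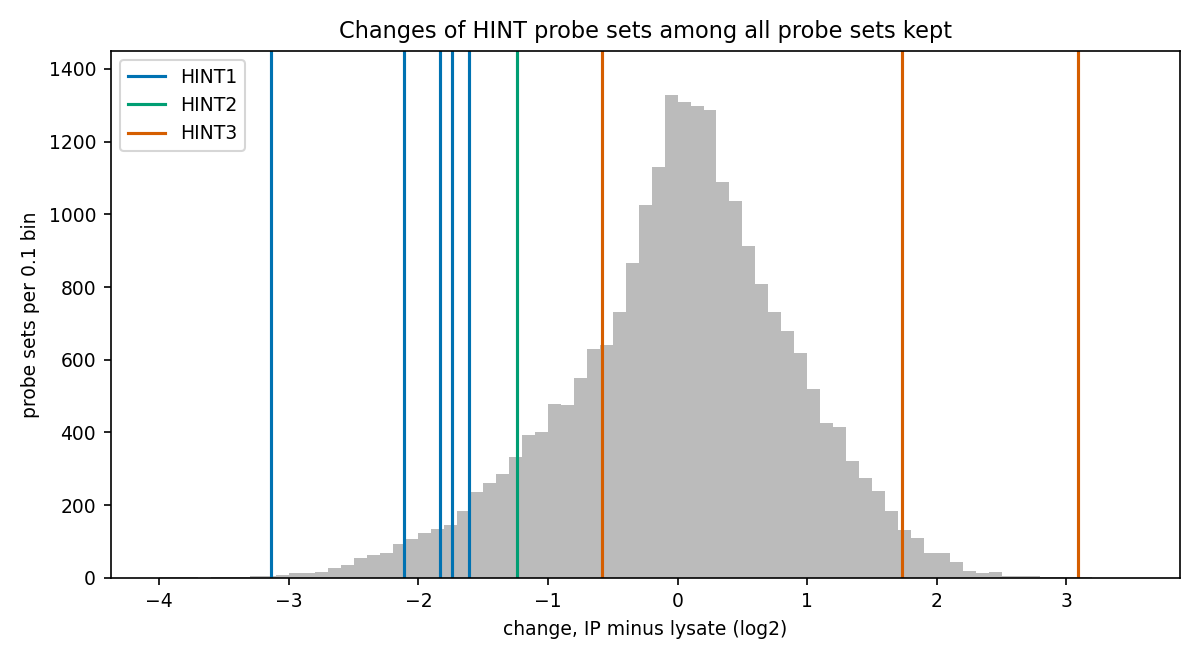
Histogram of the change from lysate to IP (x axis, log2) for the 23516 probe sets kept, in bins of 0.1 (y axis, probe sets per bin), with vertical lines at the changes of the 9 HINT probe sets. The 5 HINT1 lines lie between -3.14 and -1.61 and the HINT2 line at -1.24, while the 3 HINT3 lines lie at -0.58, 1.73 and 3.09.

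The spread among probe sets of 1 gene was compared with that of other genes as a description. Of 2618 genes with 3 or more probe sets kept, the median gene had changes spanning 0.74, with quartiles of 0.47 and 1.14 and a 95th percentile of 1.87. The HINT3 changes spanned 3.67, which was matched or exceeded in 3 of these genes, itself included, or 0.115%. The choice of HINT3 used this disagreement, so a wide span was favoured in advance and nothing is read from its share or rank. The lower end of the span was set by 226537_at, whose low signals (means of 5.80 in the lysates and 5.22 in the IPs) have no known floor either. The HINT1 span of 1.53 was set by 1555960_at, whose IP values have no known floor, so nothing is read from its place among the genes. Genes with more probe sets have more room to spread: among the 1638 genes with exactly 3 probe sets kept the median span was 0.65 and HINT3 had the widest, and among the 223 with exactly 5 the median was 1.00. A gene with groups separated upwards in 1 probe set and downwards in another, as HINT3 had, was seen in 21.4% of the 2618, and one with at least 2-fold changes both ways, which HINT3 did not have, in 0.649%.

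The other genes with a span as wide, named after their values were seen, were ALG13 and RBBP6. ALG13, encoding a subunit of the enzyme that adds the second sugar of the N-glycan precursor, had 4 probe sets kept, spanning 4.38. Of these, 222808_at changed by -2.99 and 219015_s_at by -2.33, and 205583_s_at and 205584_at by 1.28 and 1.39. RBBP6, encoding a ubiquitin ligase that takes part in mRNA 3′ end processing, had 7, spanning 3.68: 205178_s_at, 212783_at and 212781_at changed by 1.94 to 1.98, 232044_at by 0.61, 228814_at and 1552329_at by -0.05 and -0.19, and 223802_s_at by -1.70. Without lysate replicate 1 the share of genes with a span of at least that of HINT3 was 0.191%, and without lysate replicate 2 it was 0.0764%.

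**Figure D3:**
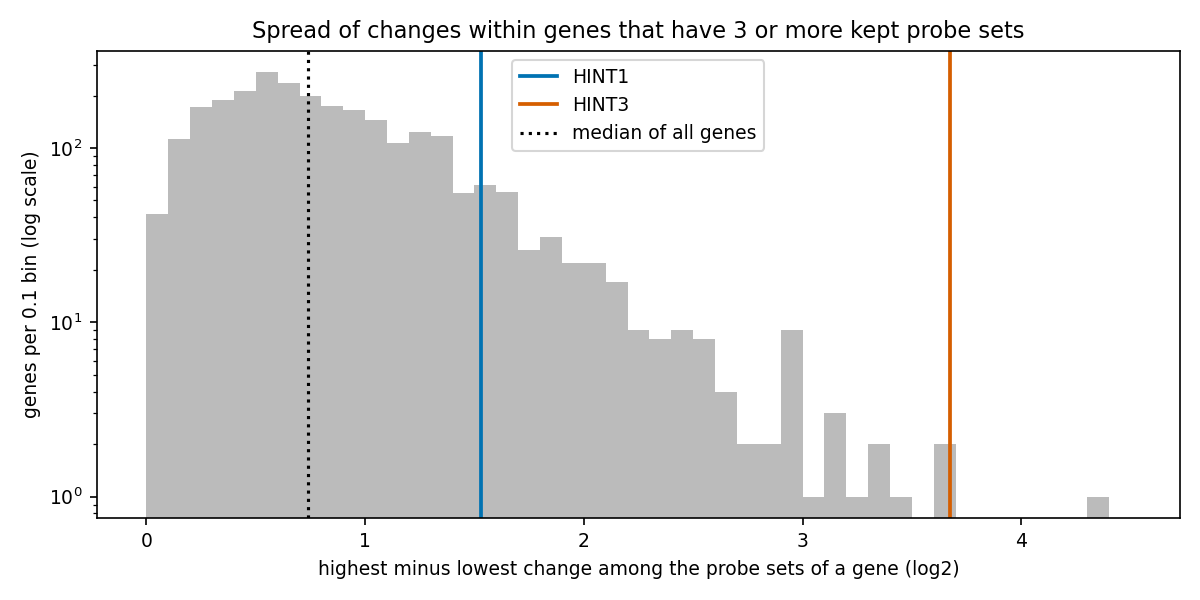
Histogram of the highest minus the lowest change among the probe sets of a gene (x axis, log2) for the 2618 genes with 3 or more probe sets kept, in bins of 0.1, with the number of genes per bin on a log scale (y axis). The dotted line is the median of 0.74, and the solid lines mark HINT1 at 1.53 and HINT3 at 3.67.

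A measure that the choice of the family did not use was the difference between replicates. IP array 2 read lower than IP array 1 in all 9 HINT probe sets, by between 0.10 and 0.48, whereas this was so for 50% of all probe sets kept. The difference was -0.26, -0.28 and -0.29 for the HINT3 probe sets, which differed in direction between lysate and IP, and -0.48 for 1555960_at, the largest of the family. Between the lysate arrays, replicate 2 was lower in 6 of the 9, against 46.1% of all. The median size of the difference over all probe sets kept was 0.14 for either pair. Since the probe sets of a gene share their RNA, this amounts to 3 genes and not to 9 observations.

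The probe sets whose 4 values lay closest to those of each HINT gene were sought by Euclidean distance on the log2 scale over the 4 arrays. For 228697_at of HINT3 they were those of the nucleoporin gene RANBP2 (distance 0.44, change 2.87), the fibrillin gene FBN1 (0.60, 2.69), the adhesion molecule gene MCAM (0.70, 2.52), ABHD15 (0.90, 2.26) and the intraflagellar transport gene IFT172 (0.91, 2.35). For 1555961_a_at of HINT1 they were FAU (0.25, -1.46), the poly(C)-binding protein gene PCBP2 (0.29, -1.43), RPS29 (0.33, -1.66), RPL29 (0.37, -1.39) and RPS21 (0.37, -1.67). Of these, FAU, RPS29, RPL29 and RPS21 encode cytosolic ribosomal proteins. For 224415_s_at of HINT2 they were WDR83OS (0.05, -1.25), the mitotic checkpoint and DNA polymerase subunit gene MAD2L2 (0.09, -1.25), TXNDC12 (0.12, -1.31), JPT1 (0.13, -1.12) and TXNDC17 (0.13, -1.28), of which TXNDC12 and TXNDC17 encode thioredoxin-like proteins.

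Genes next to the HINT genes in the GRCh38.p14 gene table were measured with the same arrays and, unlike the HINT genes, tested in a limma fit over all 23516 probe sets with Benjamini-Hochberg adjustment. HINT3 lies on chromosome 6 between NCOA7, a nuclear receptor coactivator gene, and TRMT11, encoding a tRNA methyltransferase subunit. NCOA7 read 9.07 and 8.82 in the lysates and 9.32 and 9.28 in the IPs (change 0.36 ± 0.13 SE, adjusted p = 0.0527 by limma), and TRMT11 read 9.50 and 9.22 against 9.12 and 9.20 (-0.20 ± 0.14 SE, adjusted p = 0.25 by limma). Neither passed at 0.05, although NCOA7 passed without lysate replicate 1 (0.48), with the replicate number as a block, with a filter at the upper quartile and with the mean of its probe sets (0.39), and with each array centred on its hybridization controls TRMT11 passed at -0.68 and NCOA7 turned to -0.12. A pseudogene of 5S RNA, RNA5SP216, overlaps HINT3 and has no probe set of its own here.

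HINT1 lies on chromosome 5 beside LYRM7, encoding an assembly factor of respiratory complex III. LYRM7 read 9.32 and 8.87 in the lysates and 6.73 and 5.87 in the IPs, lower by 2.79 ± 0.29 on the log2 scale (adjusted p = 2.0e-04 by limma), and its other probe sets changed by -2.00 to -1.53. On its other side the nearest protein-coding gene was CHSY3, a chondroitin synthase gene. CHSY3 rose from 4.20 ± 0.06 to 5.21 ± 0.20 (SD, n = 2 each; change 1.01, adjusted p = 6.9e-04 by limma), from a level below the array medians. It passed the filter only through its IP values. At that lysate level only a rise could have been tested, so nothing is read from its direction. HINT2 lies on chromosome 9 between SPAG8, which did not pass (0.26, adjusted p = 0.199 by limma, and -0.22 with hybridization control centring), and FAM221B, which lay below the filter at 3.39 in the lysate.

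Other genes of the HIT superfamily showed changes in both directions. Of 7, 6 had a probe set kept; at an adjusted p of at most 0.05 by limma 3 were lower, 2 were higher and 1 did not pass, with a median of -0.24. Over all genes represented in the same way 28.1% were lower and 34.2% higher, with a median of 0.08. FHIT, a dinucleoside triphosphate hydrolase lost in many tumours, read 6.83 and 6.92 in the lysates and 6.10 and 6.22 in the IPs (-0.71 ± 0.12 SE, adjusted p = 0.00201 by limma). APTX, encoding the DNA repair enzyme aprataxin, changed by -0.60 (second probe set -0.17), and CWF19L2, encoding a splicing-related protein, rose by 0.79 (second probe set 1.07). The remaining ones, named after their values were seen, were CWF19L1 (-0.55, lower), the galactose enzyme gene GALT (0.51, higher) and the scavenger decapping enzyme gene DCPS (0.07, adjusted p = 0.66). CWF19L1 did not pass with the mean of its probe sets (-0.31). None of the 6 had a change as large as those of HINT1 or HINT2 by the same choice of probe set. The difference was not tested, and the HINT changes come from the contrast that chose the family. With hybridization control centring, in which each array is centred on its spiked-in control probe sets, GALT (0.03) and CWF19L2 (0.32) did not pass and DCPS turned to -0.41. CWF19L1 read 0.20 when only _at probe sets were used. GDPGP1 lay below the filter.

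Genes for partners of HINT1, and for enzymes acting on the same nucleotides, numbered 12, of which 11 were tested: 6 were higher and 4 were lower, and 1 did not pass, beside 34.2% higher and 28.1% lower of all genes, with a median of 0.47 beside 0.08. The list includes the CDK-activating kinase, whose subunits parted. MNAT1, its assembly factor, read 7.57 and 7.21 in the lysates and 9.04 and 9.09 in the IPs, 3.20-fold higher (adjusted p = 1.3e-04 by limma), and CCNH, its cyclin, rose by 0.82, while CDK7, the kinase, read 8.47 and 8.47 against 7.44 and 7.25 and was lower by 1.13 ± 0.13 on the log2 scale (adjusted p = 2.9e-04 by limma). With hybridization control centring MNAT1 alone of the list was called higher. Named after their values were seen, KARS1, encoding the lysyl-tRNA synthetase that binds HINT1, read 12.50 and 12.54 against 13.12 and 13.15 and rose by 0.62; a second probe set changed by 1.35, and the call was lost (0.14) with that centring. The transcription factor gene MITF stood at 6.28 in both groups (adjusted p = 0.983 by limma), with a change of -0.48, called lower, under hybridization control centring. The other lower genes, also named afterwards, were USF2 (-0.67), RGS20 (-0.44) and NUDT2 (-0.34, adjusted p = 0.0469 by limma). NUDT2 lost its call without any 1 of the 4 arrays and RGS20 without lysate replicate 1 or IP replicate 1, which left 2 lower genes in each of these latter cases. The catenin gene CTNNB1, named afterwards for its spread, was called higher at 0.47 by its probe set of highest mean while another of its 3 probe sets changed by -2.50, and the call was lost without lysate replicate 2 (0.37) or IP replicate 1 (0.33). RGS17 lay below the filter.

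A list of nucleotide housecleaning genes held Nudix family members, other nucleotide hydrolases and the inorganic pyrophosphatases PPA1 and PPA2. Of these 26 genes 24 were tested; 14 were lower, 1 was higher and 9 did not pass, beside 28.1% lower and 34.2% higher of all genes, and the median was -0.48 beside 0.08. Without lysate replicate 1 or IP replicate 2, or with no filter, 11 were lower. With hybridization control centring 21 were lower, but lower probe sets on the whole array then also rose, from 6647 to 11234. NUDT21, a subunit of the mRNA cleavage factor with the Nudix fold but no hydrolase activity, read 10.54 and 10.46 in the lysates and 8.97 and 8.83 in the IPs, 3.04-fold higher in the lysate (adjusted p = 9.3e-05 by limma). DCTPP1, a dCTP pyrophosphatase gene, changed by -1.28 and SAMHD1, encoding a dNTP triphosphohydrolase, was the higher gene, at 8.92 and 9.02 against 10.19 and 9.97 (1.11 ± 0.13 SE, adjusted p = 3.7e-04 by limma). The inosine triphosphatase gene ITPA (-1.02) and the oxidized nucleotide hydrolase gene NUDT1 (-0.91), named after their values were seen, also fell. NUDT4 lay below the filter, and NUDT8 was not analysed here. The lists share NUDT2.

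**Figure D4:**
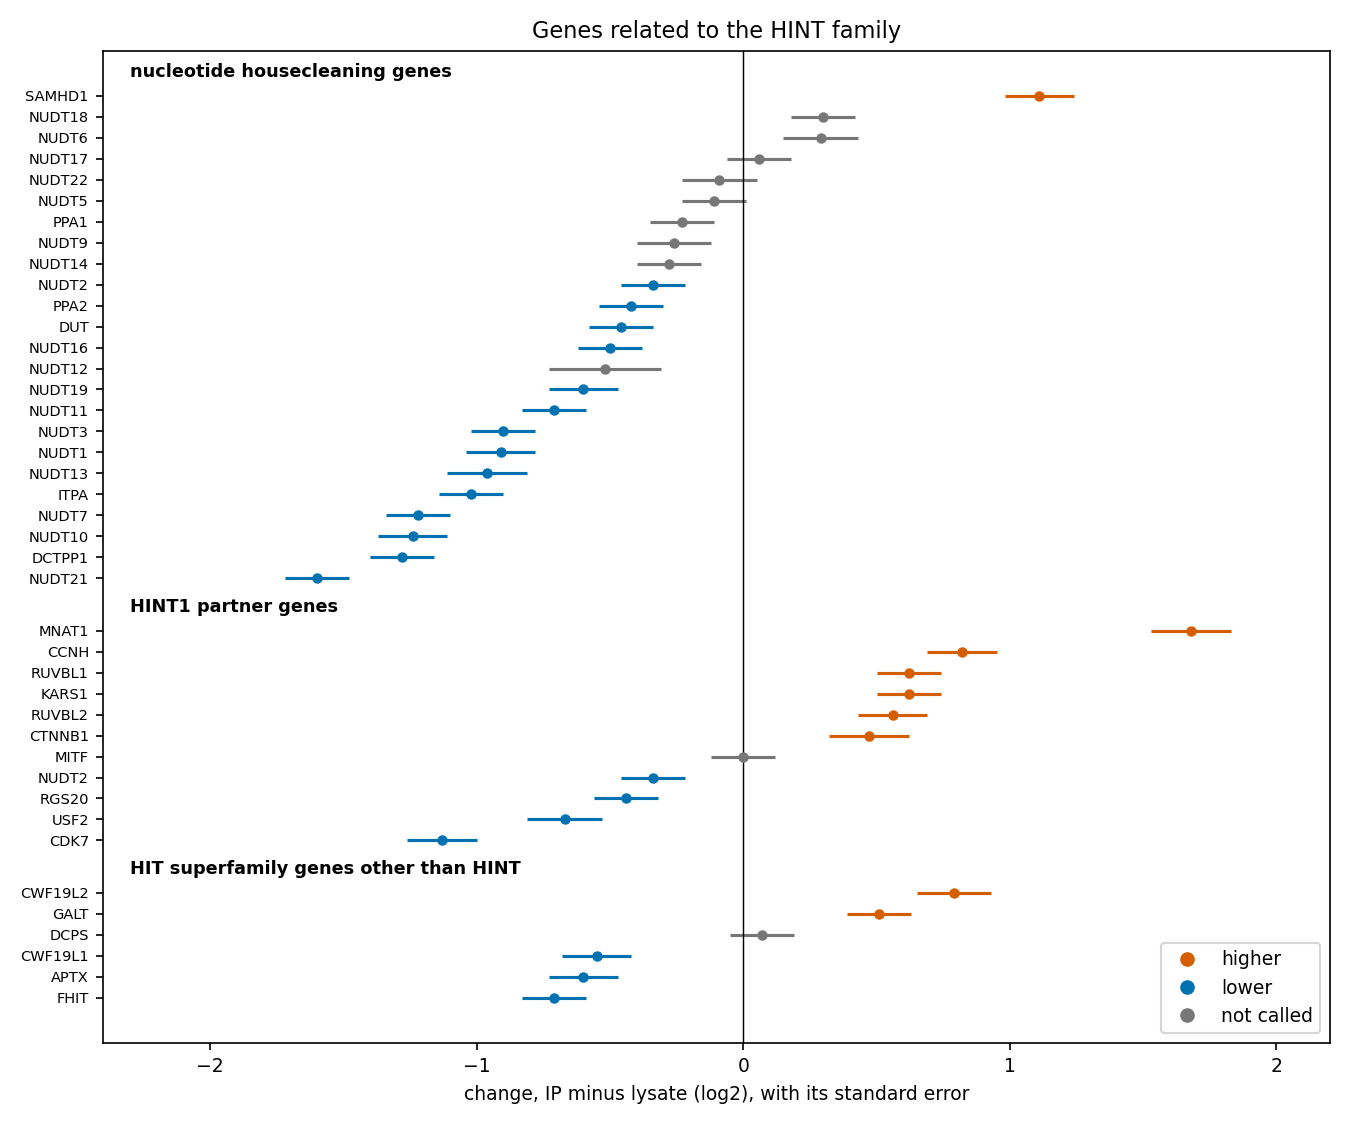
Change from lysate to IP (x axis, log2) of the tested genes in 3 lists related to the HINT family (y axis, 1 gene per row), each by its brightest probe set; points are changes, bars are moderated standard errors from 2 against 2 arrays, and colours give the limma call at an adjusted p of 0.05. Most nucleotide housecleaning genes lie left of 0, from NUDT21 at -1.60, with SAMHD1 at 1.11 as the higher gene, and the other lists lie on both sides.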

How the data were processed

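RNA from 2 lysates and 2 IPs was measured on 4 arrays. The authors deposited probe set signals that appear, from their range, to be log2 values; how background, summary and normalization were handled is not given in the sources used here. Of 54675 probe sets, 62 were controls, 41091 had 1 symbol, 1801 several and 11721 none; 41037 of those with 1 symbol had their Entrez number in the gene table of GRCh38.p14, used for names, chromosomes and neighbours only. No probe sequences, transcripts or proteins were used here.

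Probe sets with a mean of at least 4.70, the median of all, were kept (23516, for 13157 genes). IP minus lysate was fitted per probe set in limma 3.58.1 (R 4.3.3; lmFit, then eBayes; 2 residual and 4.99 prior degrees of freedom), Benjamini-Hochberg adjusted over all kept probe sets, threshold 0.05; 33.2% were called higher and 28.3% lower. A listed gene stands for its brightest kept probe set. The fit was tested on simulated data. From the planned lists 2 genes were left out and are not reported here. Members and lists were chosen with earlier results of these data known.

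Named were all HINT probe sets, the next gene by rise, neighbours, the 5 nearest probe sets, and per list 2 members that moved most with its median and 1 that moved most against it. Alternatives covered normalization, centring, the filter, probe set class, choice of probe set, spread estimate, threshold, the replicate number as a block and leaving out each array. The correlation of same-numbered deviations was 0.072, and the labels do not state a shared culture, so the numbers were not taken to pair the samples. Figures were drawn with matplotlib 3.10.9.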

Additional observations from a re-analysis of the deposited data

How the results depend on the processing

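None of the 54 recomputed HINT changes (quantile normalization, hybridization control centring and each array left out, for 9 probe sets) changed sign. The groups of all 9 were separated, so leaving out 1 array could not have changed a sign. The centring lowered all changes alike, by less than either HINT3 rise, so it could not have done so either. Nothing is read from the unchanged signs. With each array centred on its 18 hybridization control probe sets, which read 0.48 higher in the IPs, the median of all probe sets moved from 0.07 to -0.41, and the HINT1 changes became -3.62 (1555960_at), -2.59 (207721_x_at), -2.31 (200093_s_at), -2.22 (208826_x_at) and -2.09 (1555961_a_at), HINT2 -1.72 and HINT3 -1.06 (226537_at), 1.25 (226533_at) and 2.61 (228697_at). That centring gave 3442 higher and 11234 lower probe sets in place of 7805 and 6647, so 23.5% of calls were higher and not 54%, with no higher HIT superfamily gene and 1 higher HINT1 partner gene (MNAT1); DCPS (-0.41), NUDT17 (-0.42), SPAG8 (-0.22), NUDT6 (-0.19), NUDT18 (-0.18), NCOA7 (-0.12) and CTNNB1 (-0.01) turned, and GALT (0.03), CWF19L2 (0.32), CCNH (0.34) and KARS1 (0.14) did not pass. With _at probe sets only there were 4421 higher and 3831 lower probe sets, and 3 higher and 1 lower partner genes; some genes were no longer tested, and for others another probe set stood in, with which RUVBL2 (0.38) did not pass and CWF19L1 (0.20) and PPA2 (0.18) turned. The upper-quartile filter left 4314 lower probe sets and 0 higher HIT genes. With the mean of probe sets CTNNB1 was -0.51. Genes called in both directions were 8.33% of those with 3 or more probe sets kept, and 5.17% without a filter.

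Leaving out each array gave 6525 to 7369 higher and 5723 to 6325 lower probe sets, 2 to 3 lower partner genes, 11 to 13 lower nucleotide genes, and 4.97% to 7.49% of genes called in both directions. For HINT3 it gave 2.96 to 3.23 (228697_at), 1.60 to 1.87 (226533_at) and -0.72 to -0.44 (226537_at); spans of at least that of HINT3 were 0.0764% to 0.191%. With the replicate block there were 7907 higher and 6756 lower probe sets, and NUDT2 lost its call; the samples share only a number. Of 471 recomputed values of single genes, 405 kept both sign and call and 19 changed sign or set out from 0.00 (MITF). The cause of these shifts was otherwise not tested. Without detection calls, low signals have no known floor.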
